A study of Mus musculus with 6 samples.

Results

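The liver lineage transcription factors examined here are 8 genes, Hnf4a, Foxa1, Foxa2, Foxa3, Cebpa, Onecut1, Prox1 and Sox9, which were taken by name from a table of 53465 mouse genes, of which 24221 had at least 1 count. In the liver, the FOXA proteins are pioneer factors that bind hepatic enhancers in closed chromatin. HNF4A, a nuclear receptor, and C/EBPα, a basic leucine zipper protein, then drive most genes of the mature hepatocyte. ONECUT1 (HNF6) and PROX1 act in hepatoblasts and their descendants, and SOX9 marks bile duct cells and progenitor-like cells.

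RNA was sequenced from 6 primary liver cancer cell lines, 3 of the genotype Myc_Utx (lines 2A, 2B and 2D) and 3 of the genotype Myc_p53 (lines 1, 2 and 3), and the comparison asked how the transcriptome of tumour cells lacking the histone demethylase gene Kdm6a (also called Utx) differs from that of the Myc_p53 lines. The tumours arose in C57BL/6 females after plasmids had been injected under pressure into the tail vein at 8 weeks of age, a procedure that reaches a fraction of the hepatocytes. All 6 lines share the Myc oncogene, delivered as a transposon under the EF1a promoter, and differ in the gene that Cas9 and its guide RNA were directed at. Resected tumours were dissociated and grown on collagen until no other cell type was visible, so the lines are cultured survivors of tumours, and normal hepatocytes or lines without a guide were not analysed here. The labels do not state which line came from which animal, whereas the study calls the lines independent.

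Total counts ran from 4656103 to 5473042 in Myc_Utx lines and from 5370608 to 6937497 in Myc_p53 lines, and 16002 to 16958 and 18201 to 19683 genes had a count, respectively. Kdm6a did not separate the groups, with 199, 244 and 220 counts in Myc_Utx and 440, 348 and 298 in Myc_p53 (log2 fold change -0.39, Myc_Utx over Myc_p53, standard error 0.22, adjusted p = 0.243, edgeR's quasi-likelihood test). Kmt2c encodes MLL3, a methyltransferase of the complex that holds UTX, and the study's methods name it as the target for these libraries. It was lower in Myc_Utx lines (log2 fold change -0.73, standard error 0.15, adjusted p = 0.0289), a call that was lost with an adjustment for transcript length (adjusted p = 0.199) and without line 2A, 2B or 2D of Myc_Utx or line 1 or 3 of Myc_p53 (adjusted p = 0.0510 to 0.0992). The study's results section, however, names the profiled lines as edited in Kdm6a. It reports indels in Kdm6a and loss of its protein in tumour-derived cell lines of that genotype. Transcript counts alone do not settle which gene was edited in the lines labelled Myc_Utx, since an edited gene can still be transcribed. Myc did not differ by the same test (log2 fold change -0.16, standard error 0.24, adjusted p = 0.667).

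The 8 genes fell into 2 sets by their counts. Foxa1, Cebpa and Sox9 had at least 89 counts in every line and passed the filter on low counts. Hnf4a, Onecut1, Foxa3, Foxa2 and Prox1 did not pass it. Each of these 5 had 3 counts or fewer in every Myc_Utx line, whereas none of the 8 was that low in every Myc_p53 line. For Prox1 and Foxa2 this contrast rests on 1 Myc_p53 line each, with 4 counts in line 1 and 12 counts in line 3, respectively. Summed over lines, the 5 genes had 17 counts in Myc_Utx and 221 in Myc_p53. Most of the latter came from Hnf4a (6 and 119 counts) and Onecut1 (1 and 62). Foxa3 had 1 and 19, Foxa2 5 and 14 and Prox1 4 and 7 counts. Every Myc_Utx library also had fewer genes with a count than every Myc_p53 library. The share of all genes with 3 counts or fewer in every Myc_Utx line was not computed, so the contrast is not read as particular to these factors.

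**Figure D1:**
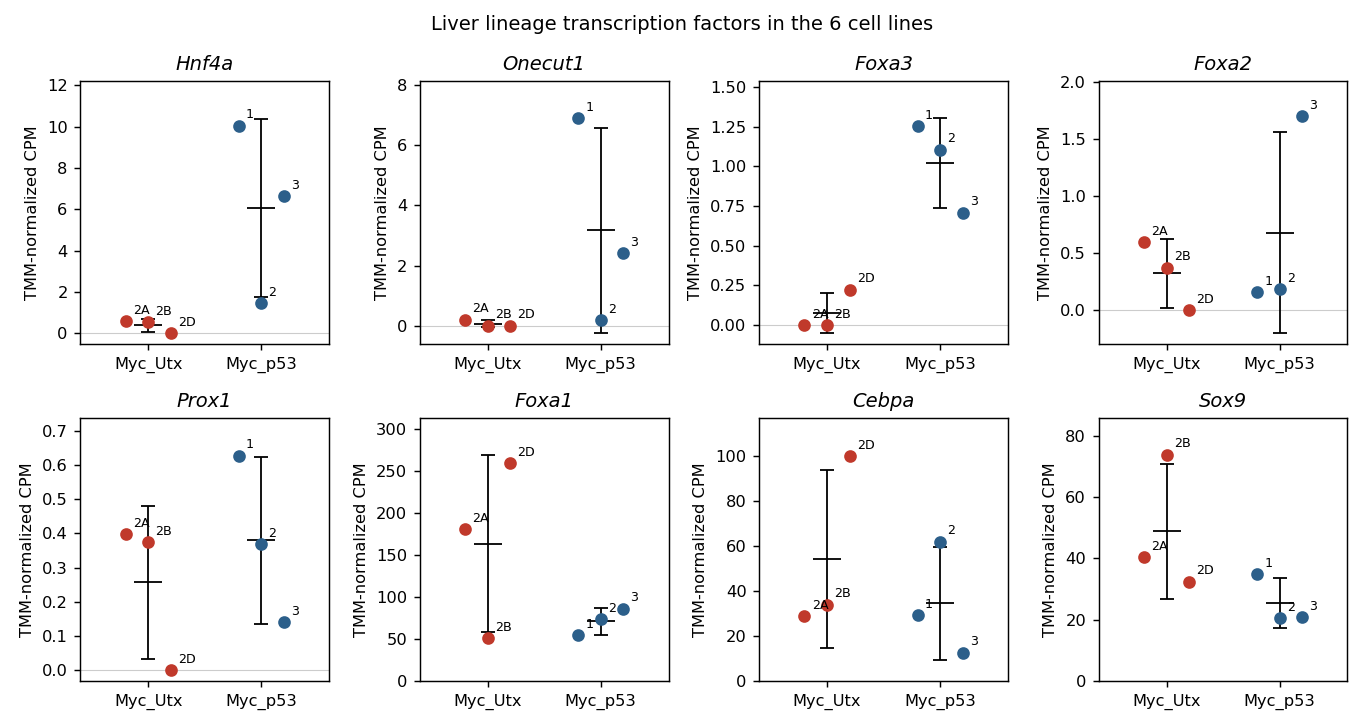
TMM-normalized CPM (counts scaled to a common library size, y axis, linear, a separate scale in each panel) of the 8 transcription factors in each cell line, with points named by line and bars showing the mean ± SD of 3 lines. The 3 Myc_Utx lines lie below the 3 Myc_p53 lines for Hnf4a and Foxa3, and the groups overlap for the other 6 genes.

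The promoter windows of Hnf4a, Onecut1 and Foxa3, which have the largest pooled ratios, are shown beside those of Foxa1 and Cebpa, the most abundant per length, so that base composition can be set beside level, as CpG-rich and CpG-poor promoters are regulated in different ways. Windows of 300 bases, from 250 before to 50 after the transcription start, were taken from RefSeq (build GRCm38.p6), and 7 of the 8 genes matched with 11 windows. Capitals mark CpG dinucleotides, and each sequence runs 5′ to 3′ on the strand of its gene. The windows are Hnf4a start 1 (chr2:163506607-163506906, plus strand), Hnf4a start 2 (chr2:163546905-163547204, plus strand), Onecut1 (chr9:74861671-74861970, plus strand), Foxa3 (chr7:19023490-19023789, minus strand), Foxa1 (chr12:57546062-57546361, minus strand) and Cebpa (chr7:35119043-35119342, plus strand).
Hnf4a start 1: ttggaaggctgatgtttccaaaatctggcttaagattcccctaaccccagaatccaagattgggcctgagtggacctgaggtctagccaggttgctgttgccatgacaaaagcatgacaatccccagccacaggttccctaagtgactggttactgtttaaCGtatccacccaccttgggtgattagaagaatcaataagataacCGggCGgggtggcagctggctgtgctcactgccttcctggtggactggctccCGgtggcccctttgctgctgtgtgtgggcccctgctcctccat
Hnf4a start 2: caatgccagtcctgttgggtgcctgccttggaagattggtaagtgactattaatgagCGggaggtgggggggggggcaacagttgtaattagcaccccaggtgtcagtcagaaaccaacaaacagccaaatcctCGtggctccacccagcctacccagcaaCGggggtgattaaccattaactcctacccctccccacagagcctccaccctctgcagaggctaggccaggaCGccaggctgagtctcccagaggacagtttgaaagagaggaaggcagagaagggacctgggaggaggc
Onecut1: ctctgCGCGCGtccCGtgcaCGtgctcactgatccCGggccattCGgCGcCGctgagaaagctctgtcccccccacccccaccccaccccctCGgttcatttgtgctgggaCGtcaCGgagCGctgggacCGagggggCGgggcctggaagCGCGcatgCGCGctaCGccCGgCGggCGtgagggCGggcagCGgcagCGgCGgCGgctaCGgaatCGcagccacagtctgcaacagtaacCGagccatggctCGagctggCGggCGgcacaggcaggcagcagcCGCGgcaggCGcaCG
Foxa3: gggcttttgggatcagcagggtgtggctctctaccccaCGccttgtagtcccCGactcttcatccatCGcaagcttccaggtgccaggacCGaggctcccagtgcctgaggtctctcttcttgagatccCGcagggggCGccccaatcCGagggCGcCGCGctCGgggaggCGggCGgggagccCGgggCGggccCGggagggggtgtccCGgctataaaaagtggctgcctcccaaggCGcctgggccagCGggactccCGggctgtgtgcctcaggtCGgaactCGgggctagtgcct
Foxa1: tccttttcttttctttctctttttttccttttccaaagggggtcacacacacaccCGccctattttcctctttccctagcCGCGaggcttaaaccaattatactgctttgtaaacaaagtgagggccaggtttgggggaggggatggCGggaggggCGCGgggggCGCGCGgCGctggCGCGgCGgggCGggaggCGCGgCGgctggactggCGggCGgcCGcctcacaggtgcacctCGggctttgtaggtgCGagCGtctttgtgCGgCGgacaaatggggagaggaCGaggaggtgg
Cebpa: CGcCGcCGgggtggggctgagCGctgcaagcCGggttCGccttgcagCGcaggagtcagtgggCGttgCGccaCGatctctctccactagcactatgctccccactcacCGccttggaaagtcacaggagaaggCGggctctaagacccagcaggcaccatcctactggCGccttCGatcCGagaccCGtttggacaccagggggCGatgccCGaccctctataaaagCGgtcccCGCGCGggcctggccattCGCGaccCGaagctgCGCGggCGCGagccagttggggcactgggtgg

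Both Hnf4a windows held 4 CpG dinucleotides, fewer than the median of 7 (quartiles 3 and 20) over 32851 RefSeq windows. Onecut1 had 38, above 95% of all windows, although it was as low as Hnf4a in Myc_Utx lines. Foxa3 held 22 CpG dinucleotides, Foxa1 26 and Cebpa 29, so CpG-rich windows belonged to genes of either set. The other windows had 12, 23 and 13 for the 3 starts of Foxa2 and 25 and 14 for the 2 starts of Prox1.

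**Figure D2:**
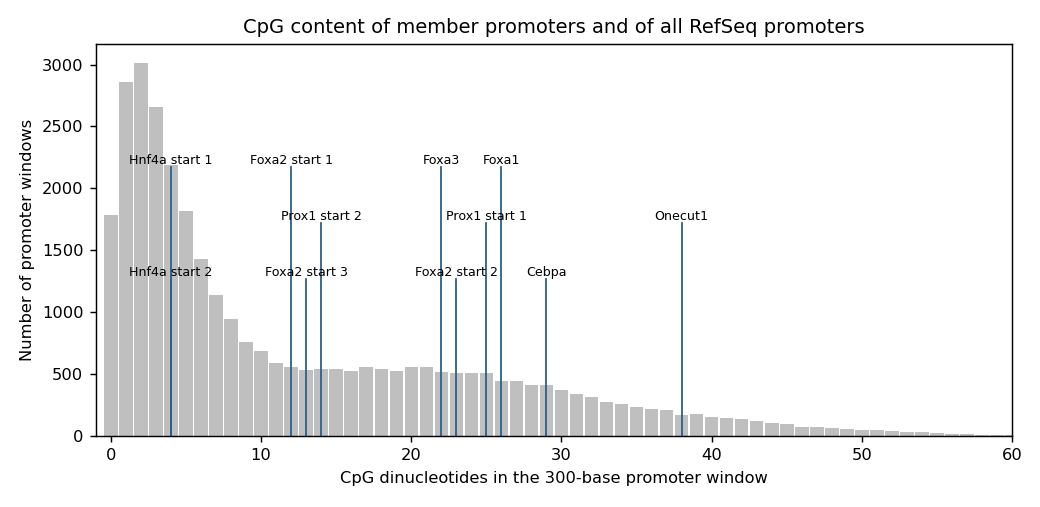
Number of CpG dinucleotides per 300-base promoter window (x axis) over 32851 RefSeq windows (grey bars, y axis, number of windows), with the 11 windows of the transcription factors as vertical lines. Hnf4a lies among the CpG-poor windows with 4, and Onecut1 lies in the upper tail with 38.

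Short core motifs were searched on both strands of each window. The ONECUT core ATTGAT stood in Hnf4a start 1 and in 1 Foxa2 window, and it stood in 7.54% of all windows. The FOXA motif TGTTTAC was found in the Foxa1 window (3.65% of all windows), and the FOXA motif TGTTTGC in 1 Prox1 window (5.07% of all windows). The E-box CACGTG, the core recognised by MYC and its relatives, stood in the Onecut1 window (7.15% of all windows). The SOX motif ACAAAG was in 3 of the 11 windows (18.7% of all windows) and the SOX motif ACAATG in none of them (12.6% of all windows). Neither the HNF4 motif CAAAGTCCA (0.475% of all windows) nor the C/EBP motif TTGCGCAA (0.183%) was found in any of the 11. Some of these motifs can share letters, such as ACAAAG with CAAAGTCCA and TGTTTGC with TTGCGCAA.

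Hnf4a (ENSMUSG00000017950, chromosome 2, 163506808 to 163572910, plus strand, GRCm38) had 3, 3 and 0 counts in Myc_Utx lines 2A, 2B and 2D and 64, 8 and 47 counts in Myc_p53 lines 1, 2 and 3. Scaled to library size, these are 0.596, 0.560 and 0 CPM against 10.04, 1.47 and 6.66 CPM. Every Myc_Utx line was below every Myc_p53 line (two-sided exact permutation test, p = 0.1, which is the lowest p possible with 3 lines in each group), and Myc_p53 line 2 was far below lines 1 and 3. The pooled level was 15.7-fold higher in Myc_p53 lines (95% Clopper-Pearson interval 6.98 to 43.5, counting error only). In the edgeR fit without a filter on low counts, the log2 fold change of Hnf4a was -3.85 (standard error 0.94), with an adjusted p of 0.0399, and by DESeq2 it had an adjusted p of 0.00446. The edgeR call was lost without Myc_Utx line 2A, 2B or 2D or Myc_p53 line 3 (adjusted p = 0.0709 to 0.0987), and the log2 fold change was between -4.31 and -3.27 with any 1 line left out.

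Onecut1 (ENSMUSG00000043013, chromosome 9, 74861921 to 74891781, plus strand), a cut-homeodomain factor of hepatoblasts and bile duct cells, showed a similar split with a larger spread. It had 1, 0 and 0 counts in Myc_Utx lines 2A, 2B and 2D and 44, 1 and 17 counts in Myc_p53 lines 1, 2 and 3. Line 2 of Myc_p53 was as low as the Myc_Utx lines, so the groups overlapped (0.199 CPM in line 2A against 0.184 CPM in line 2, exact permutation test, two-sided p = 0.2). Pooled, Onecut1 was 48.9-fold higher in Myc_p53 lines, with a counting interval of 8.47 to 1964 because it rests on 1 count in Myc_Utx. Without a filter, edgeR put the log2 fold change at -5.15 (standard error 1.41) with an adjusted p of 0.0582, which passed the threshold without Myc_p53 line 2 (-5.70, adjusted p = 0.00299), and DESeq2 gave an adjusted p of 0.0222.

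The 3 FOXA genes did not behave alike. Foxa3 (ENSMUSG00000040891, chromosome 7, 19013284 to 19023538, minus strand) had 0, 0 and 1 counts in Myc_Utx lines and 8, 6 and 5 counts in Myc_p53 lines. Although the counts were few, the groups did not overlap, and the Myc_p53 lines were close to each other at 1.26, 1.11 and 0.708 CPM (exact permutation test, two-sided p = 0.1). The pooled level was 15-fold higher in Myc_p53 lines (counting interval 2.38 to 623), and the adjusted p was 0.0828 in edgeR without a filter (log2 fold change -3.51, standard error 1.07). DESeq2 left Foxa3 without an adjusted p.

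Foxa2 (ENSMUSG00000037025, chromosome 2, 148042877 to 148046969, minus strand) had 3, 2 and 0 counts in Myc_Utx lines and 1, 1 and 12 counts in Myc_p53 lines. A difference was not detectable at this depth, as the pooled ratio of 2.21 had a counting interval of 0.752 to 7.84 and line 3 alone held most of the counts.

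Foxa1 (ENSMUSG00000035451, chromosome 12, 57540628 to 57546916, minus strand) went the other way in the means. It had 912, 272 and 1168 counts, or 181, 50.8 and 259 CPM, in Myc_Utx lines 2A, 2B and 2D, and 346, 400 and 609 counts, or 54.3, 73.7 and 86.2 CPM, in Myc_p53 lines 1, 2 and 3. Lines 2A and 2D of Myc_Utx were above all Myc_p53 lines, and line 2B was below all of them (exact permutation test, two-sided p = 0.4). The mean was 164 ± 105 CPM (SD, n = 3) in Myc_Utx and 71.4 ± 16.1 CPM (SD, n = 3) in Myc_p53, and the difference did not pass the test (log2 fold change 1.19, standard error 0.55, adjusted p = 0.177, edgeR). Without line 2B the adjusted p was 0.0580 (log2 fold change 1.64), which still missed the threshold. In the fit without a filter on low counts, Foxa1 had an adjusted p of 0.149 with all lines and of 0.00960 without line 2B (log2 fold change 1.65).

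Cebpa (ENSMUSG00000034957, chromosome 7, 35119293 to 35121928, plus strand) varied within each group more than between them. It had 145, 182 and 451 counts (28.8, 34.0 and 100.2 CPM) in Myc_Utx lines 2A, 2B and 2D and 187, 337 and 89 counts (29.3, 62.1 and 12.6 CPM) in Myc_p53 lines 1, 2 and 3. The coefficient of variation was 73.2% in Myc_Utx and 72.6% in Myc_p53 lines. Between genotypes the log2 fold change (0.64, standard error 0.69, adjusted p = 0.541, edgeR) changed its sign to -0.13 without Myc_Utx line 2D.

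Sox9 (ENSMUSG00000000567, chromosome 11, 112782224 to 112787760, plus strand), the biliary and progenitor factor of the set, had 203, 396 and 146 counts (40.4, 73.9 and 32.4 CPM) in Myc_Utx lines and 222, 111 and 147 counts (34.8, 20.5 and 20.8 CPM) in Myc_p53 lines. Lines 2A and 2B of Myc_Utx were above all Myc_p53 lines, and line 2D lay just below Myc_p53 line 1 (exact permutation test, two-sided p = 0.2). Its mean was 48.9 ± 22.0 CPM (SD, n = 3) against 25.4 ± 8.20 CPM (SD, n = 3). Its change between genotypes on the log2 scale (0.94, standard error 0.37) did not pass the adjusted test (adjusted p = 0.131, edgeR), although Myc_p53 line 1 decided this in the fit without a filter (log2 fold change 1.28 and adjusted p = 0.0111 without it, against 0.124 with all lines).

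Prox1 (ENSMUSG00000010175, chromosome 1, 190118035 to 190170714, minus strand), a homeodomain factor of hepatoblasts and lymphatic endothelium, had 2, 2 and 0 counts in Myc_Utx lines and 4, 2 and 1 counts in Myc_p53 lines. A count of 0 allows up to 3 counts, or 0.425 to 0.666 CPM depending on the line, and Prox1 stood at or near that limit in every library. No pooled ratio is therefore given, and its log2 fold change in the edgeR fit without a filter (-0.45) rests on 4 counts against 7.

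Of the 8 genes, 3 were tested in edgeR with its filter on low counts and 0 passed an adjusted p under 0.05 in either direction, while 6.99% of the 11510 genes tested were higher and 7.69% were lower in Myc_Utx lines. At an unadjusted p under 0.05, 1 of these 3 was higher (Sox9) and 0 were lower, while 16.6% of all genes tested were higher and 18.3% lower. Without the filter, 1 of 8 was lower (Hnf4a), against 3.74% of the 24221 genes with a count. By DESeq2, 2 of the 5 factors with an adjusted p were lower (Hnf4a and Onecut1), against 11.5% of the 13629 genes with an adjusted p, and Foxa2, Foxa3 and Prox1 had none. The groups did not overlap, with Myc_Utx lower, for 2 of 8 (Hnf4a and Foxa3), against 15.3% of genes with a count. The median log2 fold change of the 3 tested genes was 0.94, beside -0.01 over all genes tested. The 5 genes removed by the filter had log2 fold changes of -5.15 to -0.45 in the edgeR fit without it. The median over all 24221 genes of that fit was also below 0, at -0.23.

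To compare the genes with each other, CPM was divided by the transcript length in the deposited table. In Myc_Utx lines Foxa1 was highest with 49.2 ± 31.7 CPM per kilobase (SD, n = 3), followed by Cebpa with 20.6 ± 15.1 and Sox9 with 11.8 ± 5.33. The ranges of these 3 neighbours overlapped, and the other 5 genes were at or below 0.136 CPM per kilobase on average. In Myc_p53 lines the same 3 genes led, with 21.5 ± 4.84 for Foxa1, 13.2 ± 9.55 for Cebpa and 6.13 ± 1.98 for Sox9 (CPM per kilobase, SD, n = 3). Below them came Hnf4a with 1.25, Onecut1 with 0.770, Foxa3 with 0.502, Foxa2 with 0.287 and Prox1 with 0.0452 CPM per kilobase. Neighbours in this order overlapped in their ranges, except that the lowest Sox9 line (4.95) was above the highest Hnf4a line (2.08).

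**Figure D3:**
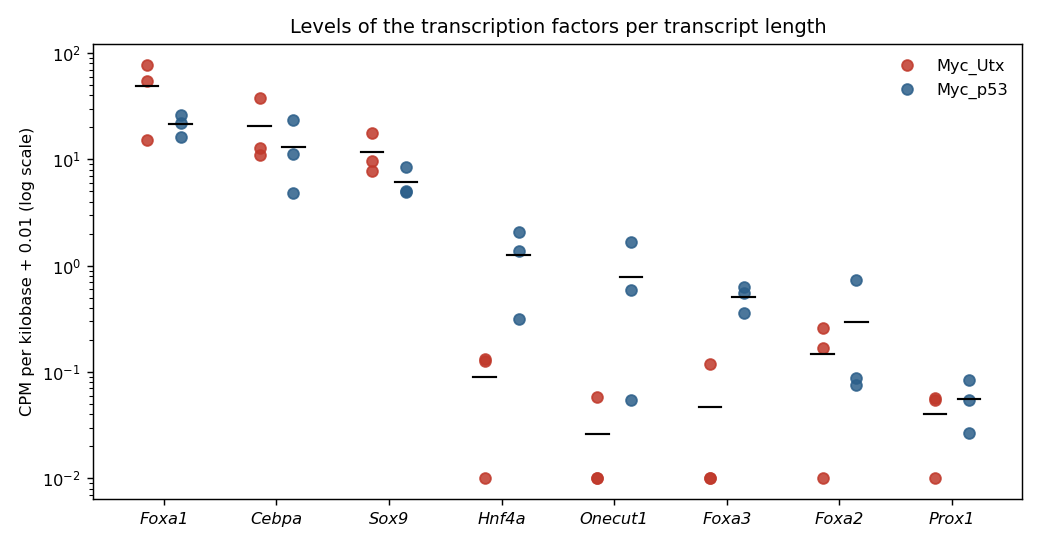
TMM-normalized CPM per kilobase of transcript plus 0.01 (y axis, log scale) for each transcription factor and cell line, with horizontal bars at the group means. Foxa1, Cebpa and Sox9 lie at or above 4.78 in every line of both groups, and the other 5 genes lie at or below 2.08 in every line.

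The lines also differed among themselves. Myc_Utx line 2D had the highest Foxa1 and Cebpa of all 6 lines and 0 counts of Hnf4a, Onecut1, Foxa2 and Prox1. Myc_p53 lines 1 and 3 held nearly all Hnf4a and Onecut1 counts of that group, whereas Cebpa was highest there in line 2.

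Paralogues of the 8 genes were set beside them. Of 10 listed, 5 were tested and 1 passed (over all genes tested, 7.69% were lower and 6.99% higher). This was Cebpd, an inducible C/EBP factor of acute phase and stress responses. It was lower in Myc_Utx lines, with 32, 25 and 17 counts against 97, 69 and 101 (log2 fold change -1.51, standard error 0.28, adjusted p = 0.0242, edgeR). This call was lost without any of the lines except Myc_p53 line 2 (adjusted p = 0.0542 to 0.0911). Cebpb had 526, 599 and 568 counts against 298, 495 and 426 (log2 fold change 0.78, adjusted p = 0.0803), and Cebpg was level in both groups (log2 fold change 0.01, adjusted p = 0.975). Onecut2 varied widely, with 224, 80 and 10 counts in Myc_Utx and 25, 682 and 143 in Myc_p53 lines (adjusted p = 0.531), so that the line lowest in Onecut1 among the Myc_p53 lines, line 2, was highest in Onecut2. Prox2 was low throughout (log2 fold change 0.07, adjusted p = 0.928). Sox8, which did not pass the filter, had 1, 1 and 0 counts against 50, 3 and 42 and was lower in Myc_Utx lines without the filter (adjusted p = 0.0318). Sox8 was singled out after its values were seen.

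Of 16 other liver transcription factors, 10 were tested, and 2 were lower and 0 higher in Myc_Utx lines (median log2 fold change -0.44). Over all genes tested, 7.69% were lower and 6.99% higher. Of the 2, Nr1h4 passed the filter through Myc_p53 lines alone and could only be called lower. Nr1h4, which encodes the bile acid receptor FXR, had 2, 7 and 2 counts in Myc_Utx lines and 106, 11 and 63 counts in Myc_p53 lines (log2 fold change -3.63, standard error 0.89, adjusted p = 0.0447, edgeR). Hhex, a homeobox gene of the early liver bud, had 49, 34 and 33 against 79, 122 and 217 counts (log2 fold change -1.49, standard error 0.38, adjusted p = 0.0487). Both calls are close to the threshold and were lost in 5 of 6 fits with 1 line left out, Nr1h4 in all but that without Myc_p53 line 2 (adjusted p up to 0.145) and Hhex in all but that without Myc_p53 line 1 (adjusted p up to 0.148). Among the abundant factors, the log2 fold changes were 0.65 for Atf5 (adjusted p = 0.102), 0.39 for Rxra (adjusted p = 0.473) and -0.80 for Zhx2 (adjusted p = 0.102).

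Nr1i2 (the pregnane X receptor) and Nr5a2 (LRH-1, a nuclear receptor of bile acid synthesis genes) were at 0 counts in every Myc_Utx line and were singled out after their values were seen. Nr1i2 had 6, 4 and 7 counts in Myc_p53 lines 1, 2 and 3, at least 4.47-fold higher than the limit of 3 counts over the Myc_Utx group. On the same basis Nr5a2, with 7, 2 and 2 counts, was at least 2.89-fold higher. Nr0b2 had no count in any line.

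**Figure D4:**
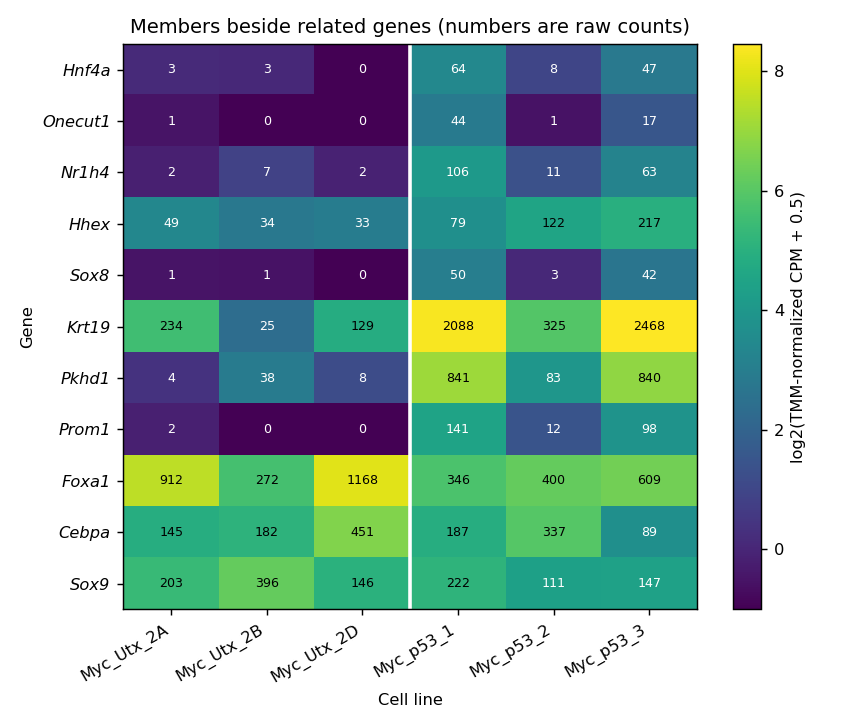
Raw counts (numbers) and log2(TMM-normalized CPM + 0.5) (colour) of 5 of the transcription factors and of related genes in the 6 cell lines, the related genes chosen after their values were seen. Hnf4a, Onecut1, Nr1h4, Sox8, Pkhd1 and Prom1 are brightest in Myc_p53 lines 1 and 3, whereas Foxa1 and Cebpa are brightest in Myc_Utx line 2D.

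The labelled cell type was compared with hepatocyte markers, which include many targets of HNF4A, FOXA and C/EBPα. Of 36 such genes, 16 had at most 3 counts in every one of the 6 lines, and only 6 could be tested, of which 1 was higher and 1 lower in Myc_Utx lines. Over all genes tested, 6.99% were higher and 7.69% lower. Alb, the albumin gene, had 14, 26 and 4 counts in Myc_Utx and 15, 7 and 16 in Myc_p53 lines. The defining transcripts G6pc, Tdo2, F9 and Cyp8b1 had no count in any line, whereas Fgb, a fibrinogen gene, had 11, 6 and 199 counts in Myc_Utx and 160, 100 and 104 in Myc_p53 lines (adjusted p = 0.875). Apob, which encodes the protein of very low density lipoprotein and is a known HNF4A target, had 0, 6 and 1 counts in Myc_Utx lines and 88, 71 and 378 counts in Myc_p53 lines (log2 fold change -5.80, standard error 1.07, adjusted p = 0.0240, edgeR). Ass1, a urea cycle enzyme, went the other way with 792, 942 and 257 against 13, 15 and 36 counts (log2 fold change 5.27, standard error 0.58, adjusted p = 0.0127). Apob passed the filter through Myc_p53 lines alone and could only be called lower. It lost its call without Myc_Utx line 2A, 2B or 2D or Myc_p53 line 3 and Ass1 without Myc_Utx line 2A (adjusted p = 0.0614 to 0.0949). The abundant markers Rbp4 and Hp overlapped between the groups (adjusted p = 0.930 and 0.660), and Ahsg was not tested, with 154 of its counts in line 2D.

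Biliary and progenitor genes, the lineage of Sox9 and Onecut1, were measured in larger numbers. Of 22 listed, 15 were tested, 6 were lower and 0 higher in Myc_Utx lines (median log2 fold change -1.74), against 7.69% lower and 6.99% higher over all genes tested. Those lower were Prom1 (-6.36, adjusted p = 0.0287), Pkhd1 (-4.76, adjusted p = 0.0363), Ggt1 (-4.26, adjusted p = 0.0217), Muc1 (-3.10, adjusted p = 0.0446), Bicc1 (-1.23, adjusted p = 0.0389) and Sox4 (-0.79, adjusted p = 0.0371), given as log2 fold changes. Prom1, Ggt1 and Muc1 had at most 5 counts in any Myc_Utx line. They passed the filter through Myc_p53 lines alone and could only be called lower. The number lower was 0 without Myc_Utx line 2A, 2B or 2D or Myc_p53 line 3, 1 without Myc_p53 line 1 and 10 without Myc_p53 line 2. Pkhd1, which encodes the fibrocystin of bile duct cilia, had 4, 38 and 8 counts in Myc_Utx and 841, 83 and 840 counts in Myc_p53 lines, the same order of Myc_p53 lines as for Onecut1. Krt8, a keratin of all liver epithelium, had 61, 200 and 0 counts against 4537, 83 and 3130 (adjusted p = 0.105), and Krt18 had 48, 256 and 0 against 2984, 108 and 2208 (adjusted p = 0.139). Spp1 and Cd24a, which were abundant in every line, did not pass the test (adjusted p = 0.883 and 0.202). Sox9 itself did not follow the 6 genes that were lower, since its highest level was in Myc_Utx line 2B. Spp1 was also highest in line 2B, and Cd24a was highest in Myc_Utx line 2D.

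**Figure D5:**
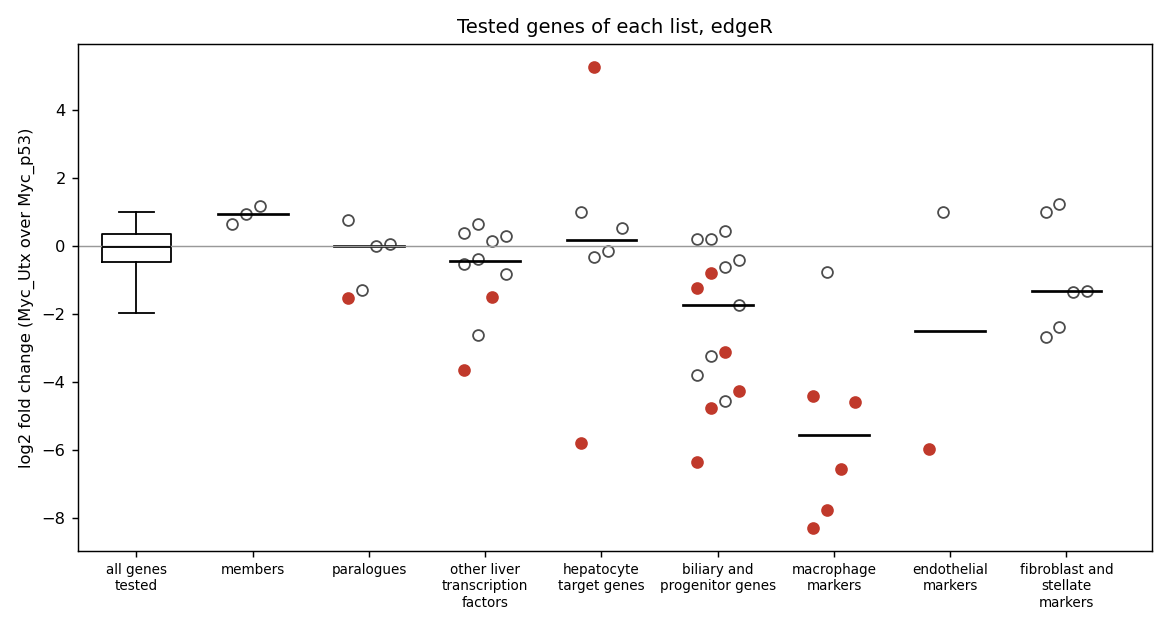
Log2 fold change, Myc_Utx over Myc_p53 (y axis), of each gene tested by edgeR, by list (x axis), with filled points at an adjusted p under 0.05, open points otherwise and a bar at each list's median. The box of all 11510 genes tested shows the median and quartiles, and its whiskers do not mark the full range. The 3 tested transcription factors lie above 0 and are open, and the median of the 15 biliary and progenitor genes is -1.74. The 5 transcription factors removed by the filter on low counts are not drawn. Without the filter their log2 fold changes were -5.15 to -0.45, beside a median of -0.23 over all genes of that fit.

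Markers of other cell types were compared in the same way. Of 13 macrophage markers, 6 were tested and 5 were lower in Myc_Utx lines (Csf1r, C1qa, C1qb, C1qc and Lyz2), against 7.69% of all genes tested. These markers had at most 5 counts in any Myc_Utx line. They passed the filter through Myc_p53 lines alone and could only be called lower. The summed level of the list was 2.78 to 6.35 CPM in Myc_Utx and 42.2 to 115 CPM in Myc_p53 lines. The number of lower markers was 0 without Myc_Utx line 2A or 2D or Myc_p53 line 3, 1 without Myc_Utx line 2B and 3 without Myc_p53 line 1. The defining Kupffer cell marker Clec4f had no count in any line. Of 11 fibroblast and stellate markers, 6 were tested and 0 passed (0 at an unadjusted p under 0.05, and 1 lower by DESeq2 and in edgeR without a filter). Their summed level was 1947 to 2686 CPM in Myc_Utx and 41.9 to 3152 CPM in Myc_p53 lines, with line 2 highest, and Lrat had no count in any line. Col3a1 alone contributed 1725 to 2551 CPM in Myc_Utx lines and 10.2, 2705 and 73.4 CPM in Myc_p53 lines 1, 2 and 3. Of 10 endothelial markers, 2 were tested and Pdpn was lower, and their summed level was 16.7 to 21.8 against 28.7 to 48.9 CPM, with Emcn at no count. Pdpn contributed 18.04, 20.5 and 40.4 CPM to the sums in Myc_p53 lines 1, 2 and 3 and at most 0.933 CPM in Myc_Utx lines. Like the macrophage markers above, Pdpn passed the filter through Myc_p53 lines alone and could only be called lower. The other tested marker, Egfl7, lay the other way, with 16.3, 17.5 and 21.3 CPM in Myc_Utx and 14.1, 7.74 and 5.52 CPM in Myc_p53 lines, and did not pass (adjusted p = 0.115). The part of these markers in the differences of Hnf4a, Onecut1 and Foxa3 was not tested. In such bulk cultures, fewer cells that express a gene and less RNA of it per cell cannot be told apart.

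For the 3 tested factors, the genes with the most similar pattern over the 6 lines were found among the 9484 tested genes whose mean count reached 50, by the root mean square difference of log2 CPM after each gene's mean had been subtracted. Sox9 was closest to Ccp110 (0.18) and Ap1s3 (0.23), Foxa1 to Bnip3 (0.37) and D630045J12Rik (0.39), and Cebpa to Ptch1 (0.34) and Enpep (0.37). For comparison, the factors' own root mean square deviation from their mean was 0.62 for Sox9, 0.87 for Foxa1 and 0.93 for Cebpa on the same log2 scale. Ptch1, the Hedgehog receptor, had 286, 319 and 727 CPM in Myc_Utx lines and 172, 719 and 134 CPM in Myc_p53 lines, which places lines 2D and 2 highest as for Cebpa. The 6 annotated genes that overlap a member (Hnf4aos, Gm25881, Gm45091, Gm20649, Prox1os and Gm28172) had at most 2 counts in any line.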

How the data were processed

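RNA-seq of 6 mouse liver tumour cell lines was analysed, with the genotype label as the group. The authors deposited raw read counts per Ensembl gene, without normalization, in 1 table that also gives gene coordinates and a transcript length for each gene, whose values are in bases and of another kind than counts. All count columns matched a sample. Per the labels' processing notes, the tools were Trimmomatic 0.36, STAR 2.5.3a, featureCounts 1.6.3 and DESeq2 1.20.0, and mouse builds were used. The study's methods instead name HTSeq and a human build. The methods also give a Kmt2c guide for the lines labelled Myc_Utx, whereas the study's results name Kdm6a. Whether counting used the strand is not given in the sources used here. The depth of 4656103 to 6937497 counts per line limits what can be seen for low genes: a count of 0 allows up to 3 counts. Intervals and this limit cover counting error only.

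The tests ran in edgeR 4.0.16 (R 4.3.3). Low genes were removed by filterByExpr (minimum count of 10), and the rest were normalized with TMM and compared between genotypes with the quasi-likelihood F test, without covariates, with Benjamini-Hochberg adjustment over all genes tested and a threshold of 0.05. Standard errors follow from F, as the absolute log2 fold change over its square root. Pooled ratios are summed counts over summed effective library sizes, with Clopper-Pearson intervals. CPM values of single genes were compared with two-sided exact permutation tests. Promoter windows were copied from RefSeq. The procedure was tested on simulated data.

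The 8 genes and the lists were chosen with earlier results of these data known. Besides them, the text names tested paralogues, the label check, from each list up to 6 genes with the largest change among those past the threshold without overlap and the 4 most abundant per length, the 2 genes nearest in pattern to each tested factor, and overlapping genes. Exceptions are said to be chosen after their values were seen, and other genes of a list are given only to describe it (markers at 0, Krt8 and Krt18 among the most abundant). Alternatives were no filter, at least 10 counts in every line, DESeq2 size factors, total counts, upper-quartile factors, DESeq2 1.42.0, offsets for transcript length (MASS 7.3.60.0.1, splines with 5 degrees of freedom), unadjusted p, and leaving out each line. Some genes of the lists and of the label check are not reported here.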

Additional observations from a re-analysis of the deposited data

How the results depend on the processing

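The counts of 3 or fewer for 5 of the 8 factors in Myc_Utx lines limit every fold given for them, and with 3 lines a group single lines decided several calls. No paired analysis was possible because the sources match no Myc_Utx line to a Myc_p53 line, and the study calls the lines independent. With 1 line left out, with or without the filter on low counts, the log2 fold change lay between 0.71 and 1.65 for Foxa1, 0.53 and 1.28 for Sox9, -0.13 and 1.38 for Cebpa (1.36 with the filter), -4.32 and -3.27 for Hnf4a, -7.20 and -3.89 for Onecut1 and -5.60 and -3.00 for Foxa3. Cebpa reversed without Myc_Utx line 2D (-0.13, or -0.11 without the filter). Sox9 (0.94) passed at an unadjusted p, and Onecut1 passed by DESeq2 (-5.45). Among the 8 factors, the number lower was 0 with the filter, 1 without it, 1 without it and with DESeq2 size factors, 2 by DESeq2 and 0 to 2 with a line left out, and the number higher was 1 at an unadjusted p and 0 to 1 with a line left out. The fits that combine no filter with another change were chosen after seeing the data. Total counts in place of TMM moved all calls from 805 higher and 885 lower to 601 and 1009, or from 47.6% to 37.3% higher. Leaving out Myc_Utx line 2A left 3 higher and 1 lower over all genes, and leaving out Myc_p53 line 2 gave 836 and 1118. For the other lists, the number lower without the filter was 2 for paralogues, 3 for hepatocyte genes and 1 for fibroblast markers. By DESeq2, it was 2 for paralogues (and 1 higher), 3 for hepatocyte genes and 1 for fibroblast markers. With at least 10 counts in every line, it was 1 for other liver factors, 2 for biliary genes and 0 for hepatocyte, endothelial and macrophage genes, as fewer genes were tested. At an unadjusted p, it was 4 for other liver factors (and 1 higher), with 1 higher for paralogues and for endothelial markers. With length offsets no gene of the label check was lower (0). With a line left out, the number lower was 0 to 1 for the label check, 0 to 2 for paralogues, 0 to 1 for other liver factors, 0 to 2 for hepatocyte genes, 0 to 10 for biliary genes, 0 to 6 for macrophage, 0 to 1 for endothelial and 0 to 1 for fibroblast markers, and the number higher was 0 to 1 for paralogues, hepatocyte, endothelial and fibroblast genes. Of single genes outside the 8, log2 fold changes reversed for Myc (0.0054 without Myc_Utx line 2A and 0.068 without Myc_p53 line 1, lowest -0.30), Cebpg (-0.037 with at least 10 counts, -0.012 with DESeq2 size factors, -0.058 with total counts, and -0.038 to 0.087 with a line left out, below 0 without Myc_Utx line 2A or Myc_p53 line 1), Prox2 (-0.25 to 0.36 with a line left out, below 0 without Myc_Utx line 2A or Myc_p53 line 3) and Onecut2 (-2.51 to 0.77, above 0 without Myc_p53 line 2). Where no cause is given, the cause was not tested.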

Other observations

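Among markers of stromal cells, Col3a1, a fibrillar collagen gene, was most abundant in the Myc_Utx lines and in Myc_p53 line 2. It had 8677, 12288 and 11488 counts in Myc_Utx lines 2A, 2B and 2D and 65, 14680 and 518 counts in Myc_p53 lines 1, 2 and 3. Myc_p53 line 2, which had the fewest Hnf4a, Onecut1 and Krt8 counts of its group, had the most Col3a1 counts of all 6 lines. Pdgfrb, a receptor of mesenchymal cells, had 874, 1454 and 517 counts in Myc_Utx and 33, 953 and 702 in Myc_p53 lines. Neither passed the edgeR test between genotypes (log2 fold changes of 1.23 and 0.997, adjusted p = 0.620 and 0.507). Other markers of the list ranked the Myc_p53 lines in different ways. Col1a1 had 21, 777 and 1655 and Acta2 39, 102 and 1552 counts in lines 1, 2 and 3. Dcn had 86, 9 and 109 counts there and at most 3 in any Myc_Utx line. Col1a2 and Pdgfra were highest in line 2, as Col3a1 was. These values were singled out after they had been seen, and their relation to the transcription factors was not tested.

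Pdpn, which encodes podoplanin of lymphatic endothelium and of several epithelial and mesenchymal cells, had 0, 5 and 1 counts in Myc_Utx lines and 115, 111 and 285 counts in Myc_p53 lines (log2 fold change -5.98, standard error 0.83, adjusted p = 0.0164, edgeR). Pdpn passed the filter on low counts through Myc_p53 lines alone and could only be called lower. Its adjusted p was under the threshold without Myc_Utx line 2B and without Myc_p53 line 1 or 2. Pdpn missed the threshold in the other fits with 1 line left out (adjusted p up to 0.0707). The endothelial markers Pecam1 and Cdh5 had at most 4 counts in any line.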
